A study of Mus musculus with 14 samples.

Results

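Subunits of mouse cytochrome c oxidase that exist as pairs of isoforms were followed through heart and hippocampus of pups and adults. The 8 genes were Cox4i1 and Cox4i2, Cox6a1 and Cox6a2, Cox7a1 and Cox7a2, and Cox8a and Cox8b, out of 18193 genes that had a probe set of their own on the array. Members were all probe sets annotated with only 1 of these genes, which gave 13 of the 45037 probe sets tested, and 0 probe sets named a member together with another gene. All 13 entered the tests, since no filter on low values was applied. The animals were C57BL/6 mice with no treatment. Pup tissue was dissected at 7 days of age, with 3 biological replicates for each tissue and 1 array for each replicate. Adult RNA was purchased and came from male tissue at 10 weeks of age, and the methods speak of its source animal in the singular. The sources disagree on the adult replicates: titles and design text give 2 biological replicates for each tissue with 2 technical arrays each, whereas source names and the paper count 4 biological replicates. The titles were followed here, and calls that change when each adult array counts as a replicate are given beside the results. Averaging the technical arrays of each adult replicate left 10 biological samples from 14 arrays. The sources do not say that the adult replicates were separate animals, so their spread may be technical, and a p-value that involves adults describes only these samples. The main fit shares its estimate of spread over all 10 biological samples. Its p-values between pup tissues therefore draw on the adult spread too, and those between adult tissues on the pup spread. Age cannot be told apart from RNA source and preparation, and the sex of the pups was not given.

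Cytochrome c oxidase is complex IV of the mitochondrial respiratory chain, where it passes electrons from cytochrome c to oxygen and pumps protons. Its catalytic core is encoded by mitochondrial DNA, and nuclear genes encode the smaller subunits around it. For subunits VIa, VIIa and VIII, mammals carry a general isoform used in most tissues (Cox6a1, Cox7a2, Cox8a) and a muscle isoform that belongs to heart and skeletal muscle (Cox6a2, Cox7a1, Cox8b). Cox7a1 and Cox8b are also known from brown fat. Subunit IV, which binds ATP and takes part in the control of the enzyme, has a general isoform, Cox4i1, and a second isoform, Cox4i2, known from lung, from vessel walls and for its response to low oxygen. Cox4i2 is therefore a partner of the general isoform but not a muscle isoform.

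Values were log2 expression of a probe set. Array medians lay between 8.73 and 8.77 in pup hippocampus, 8.77 and 8.85 in pup heart, 8.83 and 8.87 in adult hippocampus, and 8.94 and 8.98 in adult heart. Hybridization controls (18 probe sets) averaged 13.15 and 13.16 in pup hippocampus and pup heart, against 10.80 and 10.73 in adult hippocampus and adult heart. Of the 16 cardiac marker genes, which include the myosins, troponins and natriuretic peptide of heart muscle cells, 16 had a called probe set higher in pup heart and 14 in adult heart than in hippocampus of the same age. Of their 31 probe sets 24 were higher and 0 lower in pup heart, and 23 were higher and 1 lower in adult heart. Over all probe sets 6.77% were higher and 7.52% lower in pup heart, and 11.9% and 10.3% in adult heart. All 8 neuronal marker genes had a called probe set lower in heart at each age, on 12 of their 21 probe sets in pups and 16 in adults, with 0 higher. These are bulk tissues, so fewer cells of a type and less RNA per cell cannot be told apart. The level of a probe set depends on its own probes, so levels are compared between samples and never between probe sets or genes.

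The muscle isoforms of subunits VIIa and VIII differed between heart and hippocampus by more than any probe set of the general isoforms. Cox7a1, the muscle form of subunit VIIa, was 30.6-fold higher in pup heart and 51.7-fold higher in adult heart than in hippocampus of the same age. Cox8b, the muscle form of subunit VIII, was 45.5-fold higher in pup heart and 54.8-fold higher in adult heart. Cox6a2, the muscle form of subunit VIa, gave 126-fold on 1457633_x_at and 1.88-fold on 1417607_at in pups. The first of these is of a type that can cross-hybridize (_x_at). Those values are differences of log2 values turned into folds, without a background level, so large folds are not exact.

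The log2 value of Cox7a1 (1418709_at) was 8.18, 7.76 and 7.31 in the pup hippocampus replicates 1 to 3 and 14.63, 11.68 and 11.75 in the pup heart replicates 1 to 3. In adults it was 7.30 and 6.92 in hippocampus and 12.84 and 12.76 in heart. Every heart sample lay above every hippocampus sample, and pup heart replicate 1 stood almost 3 log2 units above the other pup hearts. The tissue difference was 4.94 on the log2 scale in pups (limma SE 0.67, adjusted p = 0.000895) and 5.69 in adults (limma SE 0.82, adjusted p = 0.00155). Without pup heart replicate 1 the pup difference was 3.97 (limma adjusted p = 7.44e-05). The adult hippocampus replicate 2 was measured at 7.71 and 6.13 by its technical arrays.

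Cox8b (1449218_at) read 10.71, 8.45 and 7.48 in pup hippocampus and 15.09, 15.04 and 13.03 in pup heart. Adult hippocampus samples were at 7.29 and 8.73, and adult hearts at 13.96 and 13.61. The groups did not overlap at either age, but hippocampus samples spread widely: pup hippocampus had an SD of 1.66 (n = 3). Technical arrays of adult hippocampus replicate 2 gave 10.00 and 7.45, the largest such gap among the 13 probe sets at 2.54. The difference was 5.51 in pups (limma SE 0.82, adjusted p = 0.00156) and 5.78 in adults (limma SE 1.01, adjusted p = 0.00366).

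Cox6a2 was read by a pair of probe sets that did not give the same size of difference. On 1457633_x_at it was at 9.03, 7.74 and 7.08 in pup hippocampus and 15.36, 14 and 15.43 in pup heart, with adult hippocampus at 7.07 and 7.41 and adult heart at 13.76 and 13.22. On 1417607_at the pup hippocampus samples were at 14.95, 14.51 and 14.38 and the pup hearts at 15.63, 15.42 and 15.54, while adults were at 14.20 and 14.67 in hippocampus and 15.51 and 15.31 in heart. Both probe sets were higher in heart with no overlap at either age. The first differed by 6.98 in pups (limma SE 0.52, adjusted p = 1.87e-05) and 6.25 in adults (limma adjusted p = 0.000321, 76.0-fold). The second differed by 0.91 in pups (limma SE 0.23, adjusted p = 0.0282) and 0.98 in adults (limma SE 0.29, adjusted p = 0.0366). In heart the second probe set lay between the percentiles 98.4 and 99.88 of its arrays, close to the upper end of the scale, and the part of that in its differences was not tested. The probe sets also stood far apart in hippocampus. There the second lay between the percentiles 93.48 and 96.27 and the first between 13.97 and 55.28. Why they differ was not tested.

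The smaller Cox6a2 differences kept their direction with any 1 sample left out, but their calls depended on single samples. The pup call on 1417607_at was lost when only the compared groups were fitted (limma adjusted p = 0.0622), and also without pup hippocampus replicate 2 (0.86, limma adjusted p = 0.0968), pup hippocampus replicate 3 (0.80, limma adjusted p = 0.0961) or pup heart replicate 1 (0.86, limma adjusted p = 0.0747). The adult call was lost without any 1 of the 4 adult samples, with differences from 0.74 to 1.21, and without pup hippocampus replicate 2 (limma adjusted p = 0.0551).

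**Figure D1:**
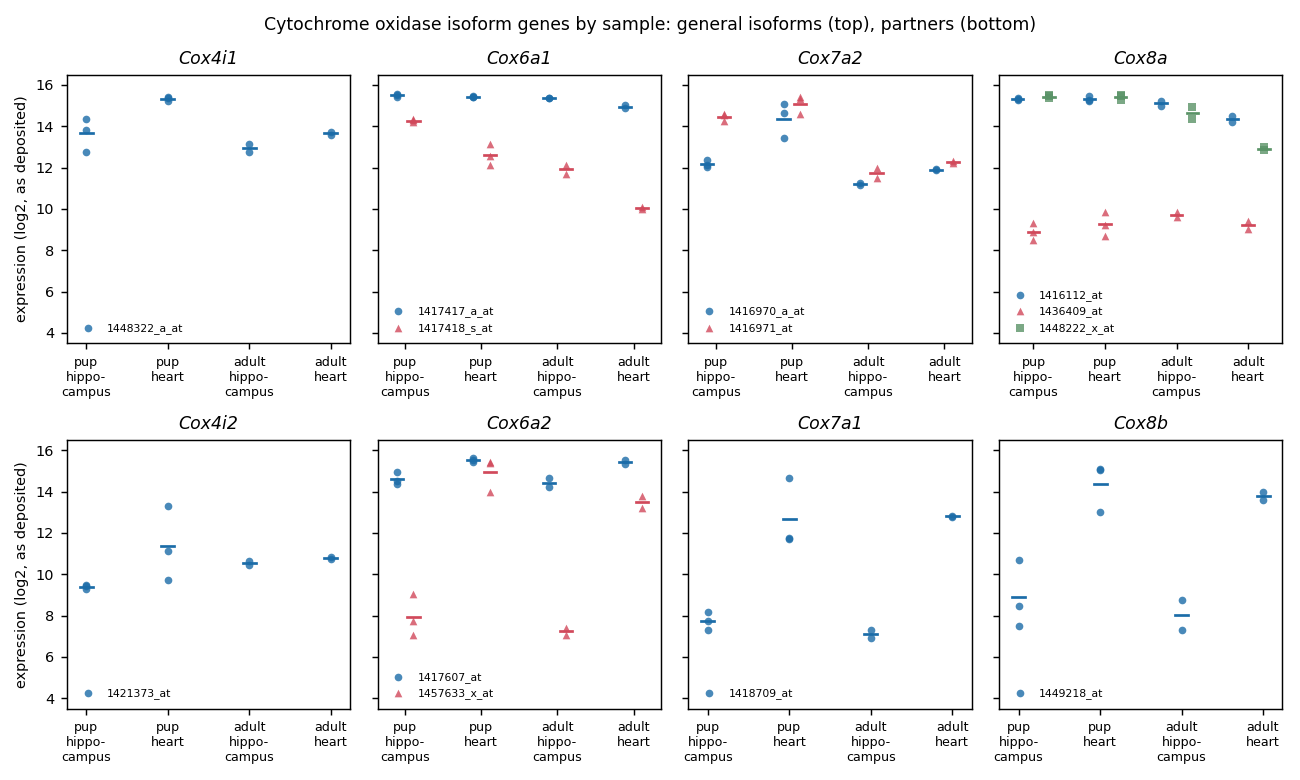
Log2 expression of each isoform gene in the 10 biological samples, with the 4 groups on the horizontal axis, general isoforms in the top row and their partners below. Points are samples (adult points are means of 2 technical arrays), bars are group means, and colours and shapes are probe sets of the gene. Cox7a1, Cox8b and 1 probe set of Cox6a2 are near 7 to 9 in most hippocampus samples and near 12 to 15 in heart, while the general isoforms stay within 5 log2 units on every probe set.

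The general isoforms did not share a direction. Cox6a1, the general form of subunit VIa, was lower in heart on 1 probe set and did not pass on the other. On 1417418_s_at it read 14.31, 14.18 and 14.33 in pup hippocampus and 13.12, 12.12 and 12.54 in pup heart, then 11.71 and 12.11 in adult hippocampus and 10.00 and 10.08 in adult heart. Heart samples were below all hippocampus samples of their age. This gave a difference of -1.68 in pups (3.20-fold lower, limma SE 0.27, adjusted p = 0.00253) and -1.87 in adults (3.65-fold lower, limma SE 0.33, adjusted p = 0.00403). On 1417417_a_at all 10 samples lay between 14.88 and 15.54, and the differences of -0.08 in pups (95% interval -0.49 to 0.33) and -0.40 in adults (-0.90 to 0.10) did not pass the test. The adult groups did not overlap there, with hearts at 14.88 and 15.01 and both hippocampus samples at 15.35. This probe set lay between the percentiles 95.8 and 99.4 of its arrays, near the upper end of the scale, and the part of that in its differences was not tested.

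Cox7a2, the general form of subunit VIIa, was higher in pup heart on 1416970_a_at. Its pup hippocampus samples were at 12.39, 12.01 and 12.14 and its pup hearts at 15.08, 13.41 and 14.63, a difference of 2.19 without overlap (4.57-fold, limma SE 0.37, adjusted p = 0.0035). In adults the same probe set differed by 0.69 (95% interval -0.33 to 1.72), which did not pass. The other probe set, 1416971_at, differed by 0.63 in pups (0.03 to 1.23) and 0.53 in adults (-0.20 to 1.26). Neither passed, and without pup heart replicate 2 the pup difference was 0.89 (limma adjusted p = 0.0417).

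Cox8a, the general form of subunit VIII, did not pass the test between the pup tissues on any of its 3 probe sets, with differences of 0.01 on 1416112_at, -0.02 on 1448222_x_at and 0.34 on 1436409_at. In adults it was lower in heart on 1448222_x_at, where adult hippocampus read 14.33 and 14.93 and adult heart 12.99 and 12.83. The difference was -1.72 (3.29-fold lower, limma SE 0.27, adjusted p = 0.00231). The adult difference was -0.76 on 1416112_at (limma adjusted p = 0.0512) and -0.51 on 1436409_at (limma adjusted p = 0.411). On 1416112_at the technical arrays of adult heart replicate 1 read 14.76 and 13.63. The adult difference on that probe set, just short of the threshold, passed in several alternatives: with each adult array as a replicate (limma adjusted p = 0.0249), with replicates as a random block (0.0369), without the dimmest probe sets (0.0464), with the brightest probe set of each gene (0.0468), with limma's trend and robust options (0.0205), and without pup heart replicate 2 (0.049) or 3 (0.0402).

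For subunit IV the general isoform passed the test in pups, and its partner, with a larger difference and a wider spread, did not. Cox4i1 (1448322_a_at) was at 14.37, 13.83 and 12.76 in pup hippocampus and 15.37, 15.22 and 15.40 in pup heart. The pup hearts were all higher, by 1.67 on the log2 scale (3.19-fold, limma SE 0.36, adjusted p = 0.0126). Adult hippocampus read 12.73 and 13.13 and adult heart 13.74 and 13.59, and the difference of 0.73 (95% interval -0.26 to 1.73) did not pass.

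Cox4i2 (1421373_at) was at 9.29, 9.42 and 9.47 in pup hippocampus and 11.12, 9.70 and 13.29 in pup heart. The pup hearts spread over more than 3 log2 units, while the pup hippocampus samples lay close together (SD 0.09, n = 3). Its difference of 1.98 did not pass (limma SE 0.69, adjusted p = 0.0921). It passed with each adult array as a replicate (limma adjusted p = 0.0436), with a random block (limma adjusted p = 0.0451) and without pup heart replicate 2, at 2.81 (limma adjusted p = 0.00835), and was 1.02 without pup heart replicate 3 (limma adjusted p = 0.0935). Adult values were 10.46 and 10.66 in hippocampus and 10.82 and 10.76 in heart, with a difference of 0.23 (95% interval -1.68 to 2.13).

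In all, 6 of the 13 member probe sets were higher and 1 was lower in pup heart, where 6.77% and 7.52% of all probe sets tested were called in these directions. In adult heart 4 were higher and 2 were lower, against 11.9% and 10.3% of all probe sets. The members' median difference was 0.91 in pups and 0.53 in adults, beside 0.10 and 0.06 over all probe sets. With each sample left out in turn, between 5 and 8 member probe sets were called higher in pup heart, and 3 or 4 in adult heart.

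**Figure D2:**
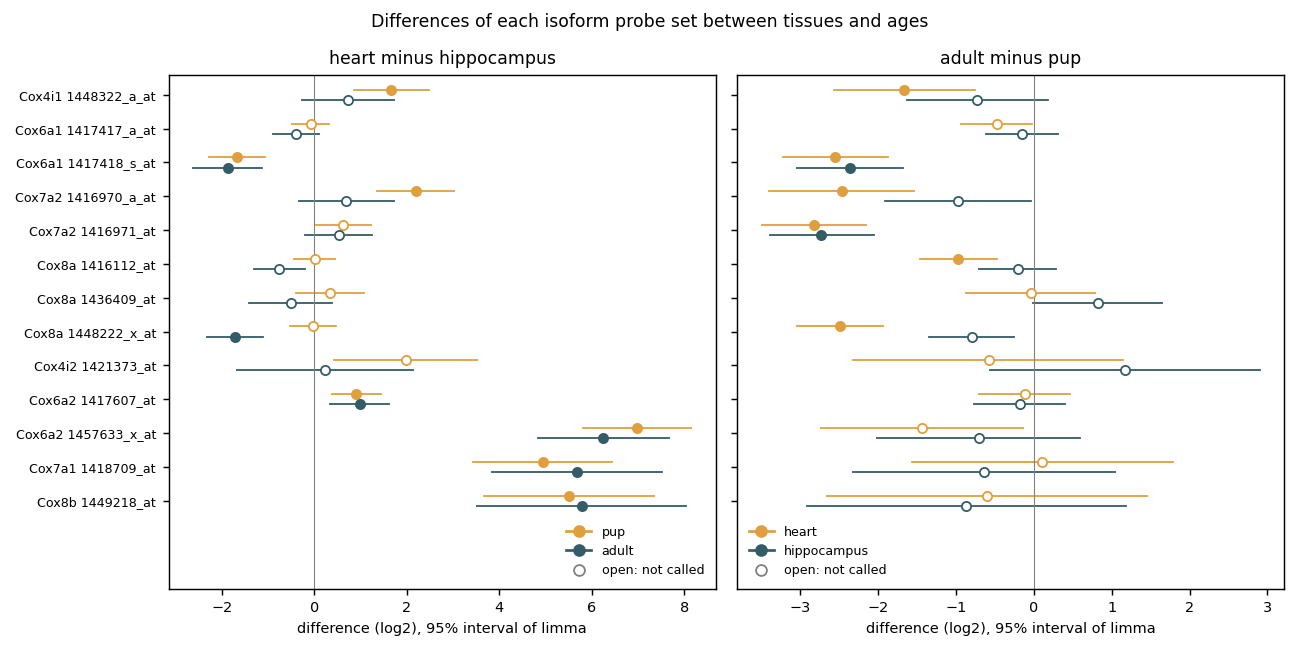
Difference of each isoform probe set on the log2 scale with its 95% interval from limma, heart minus hippocampus on the left (pups and adults) and adult minus pup on the right (heart and hippocampus). Filled points passed an adjusted p of 0.05 over all probe sets, open points did not. The muscle isoforms Cox7a1 and Cox8b and 1 Cox6a2 probe set stand at 4.94 or more in the left panel, and the called age differences on the right are all below 0.

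Within a sample, the difference between the log2 values of both members of a pair is a ratio from which the scaling of that array cancels. Its level has no meaning across probe sets, but its change between groups shows whether both isoforms moved alike. The brightest probe set of each gene was used. The ratio of Cox7a1 to Cox7a2 was -6.35, -6.51 and -7.27 in pup hippocampus and -0.76, -2.89 and -3.55 in pup heart. It was -4.21 and -5.04 in adult hippocampus and 0.63 and 0.44 in adult heart. The ratio of Cox8b to Cox8a was -4.59, -6.80 and -7.90 in pup hippocampus, -0.19, -0.18 and -2.42 in pup heart, -7.92 and -6.27 in adult hippocampus, and -0.24 and -0.88 in adult heart. For both pairs every heart sample was above every hippocampus sample of either age.

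Ratios were compared by exact two-sided permutation tests with tissue labels permuted within each age, which allow 120 arrangements and a smallest p of 0.0167. The ratio was higher in heart by 4.73 for subunit VIIa (4.31 in pups, 5.16 in adults), by 6.02 for subunit VIII (5.50 and 6.53) and by 1.19 for subunit VIa (0.99 and 1.38). Each of these 3 gave an exact p of 0.0167, the smallest possible, and an adjusted p of 0.0333 over the 8 pair tests run. The ratio of Cox4i2 to Cox4i1 differed by -0.10 (0.30 in pups, -0.51 in adults, exact permutation p = 0.883). Its pup hearts were at -4.25, -5.52 and -2.11 and enclosed the pup hippocampus values of -5.08, -4.41 and -3.29.

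Some of the brightest probe sets lay near the upper end of the scale, so the sizes of these ratio differences are not exact. In pups Cox8a on 1416112_at was between the percentiles 97.9 and 99.3 of the arrays. For subunit VIa both probe sets of the ratio were there, Cox6a1 in all groups and Cox6a2 in heart. Cox7a1 lay low in hippocampus, between the percentiles 20.9 and 39.3 of the arrays in pups and 5.11 and 27.5 in adults. The part of these limits in the ratios was not tested.

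The choice of probe set set the size of the subunit VIa value. Over the 4 combinations of Cox6a2 and Cox6a1 probe sets the ratio was higher in heart by 1.19 to 8.39, against 3.87 and 4.73 for subunit VIIa and 5.73 to 6.51 for subunit VIII, and each combination had the exact permutation p of 0.0167. The combinations for subunit VIII include Cox8a on 1436409_at, which was at 8.49 to 9.84 and so away from the upper end.

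**Figure D3:**
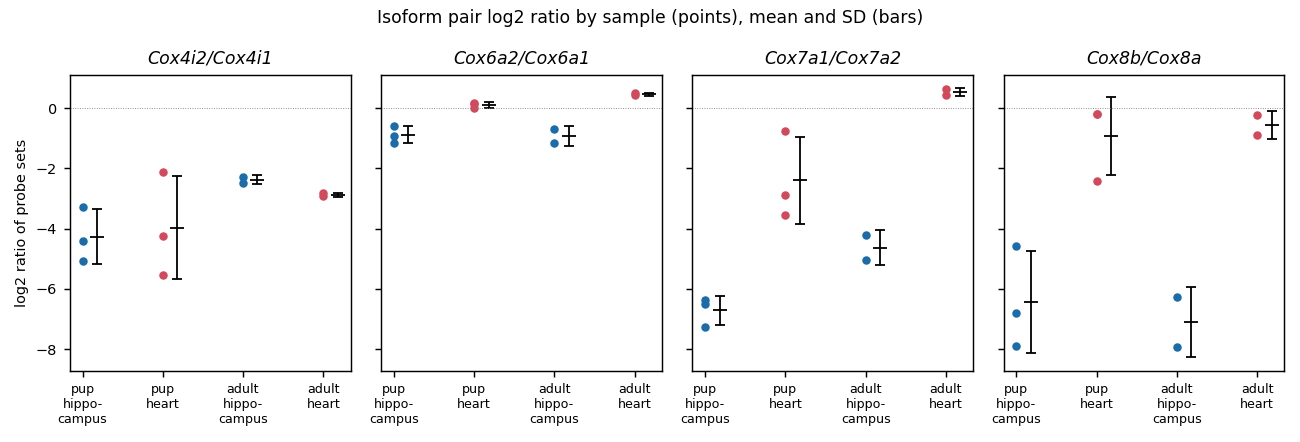
Log2 ratio of the partner isoform to the general isoform, by the brightest probe set of each gene, in every biological sample of the 4 groups (points, hippocampus blue and heart red) with the group mean and SD (black). In the pairs of subunits VIa, VIIa and VIII the hearts lie above the hippocampus samples of their age, whereas the hearts and hippocampus samples of the Cox4i2 and Cox4i1 pair overlap in pups.

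Some muscle isoform values moved with heart muscle genes among the pup hippocampus samples. The summed level of the cardiac marker list was 16.35, 15.65 and 15.11 in pup hippocampus replicates 1 to 3, beside 15.75 and 15.60 in adult hippocampus, 18.90 to 19.16 in pup heart and 18.06 to 18.38 in adult heart. Of its 16 genes, 11 were highest in replicate 1 among the pup hippocampus samples. Actc1, the cardiac actin, was at 14.76, 12.49 and 10.31 there, and at 8.30 and 8.51 in adult hippocampus. Myl2, a ventricular myosin light chain, was at 11.15, 8.90 and 7.27, against 6.44 and 6.76 in adult hippocampus. Cox8b, Cox7a1, Cox4i1, and Cox6a2 on both probe sets had the same order in pups, with replicate 1 highest and replicate 3 lowest. The adult samples did not all follow. Cox8b in adult hippocampus replicate 2 was at 8.73, above pup replicates 2 and 3 at 8.45 and 7.48. Actc1 and Myl2 were lower in both adults than in every pup. The part of these cardiac transcripts in the hippocampus values was not tested. Without pup hippocampus replicate 1 the pup tissue differences were 6.43 for Cox8b, 5.15 for Cox7a1, 7.52 for Cox6a2 on 1457633_x_at and 2.03 for Cox4i1, each larger than with it and each passing the test.

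**Figure D4:**
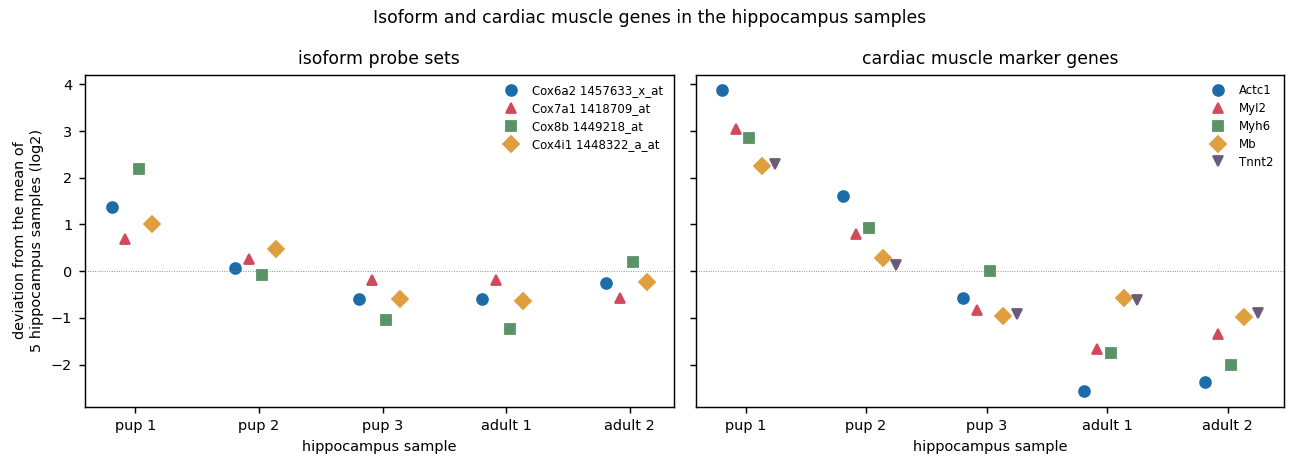
Deviation of each probe set from its own mean over the 5 hippocampus samples, on the log2 scale, for isoform probe sets (left) and cardiac muscle marker genes (right), with 1 point for each sample. Pup hippocampus replicate 1 is the highest sample for each of the 4 isoform probe sets and 5 marker genes plotted.

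Pup hearts also differed among themselves in genes of other cell types and chambers. Cox7a1 was highest in pup heart replicate 1, where Ucp1, the uncoupling protein of brown fat, was at 12.54 against 10.88 and 10.19 in replicates 2 and 3. Cidea, another brown fat gene, was at 8.23, 8.03 and 7.10. Over replicates 1 to 3, Myl7, the atrial myosin light chain, was at 12.82, 11.05 and 11.01, and Nppa, the atrial natriuretic peptide, at 15.30, 13.06 and 14.05. Of the 7 brown fat genes measured 4 were highest in replicate 1. The summed level of that list was 13.69, 13.38 and 13.19 in pup heart and 13.75 and 13.85 in adult heart. Its median over genes was 9.66, 10.32 and 10.19 in pup heart, lowest in replicate 1. Cox8b, also known from brown fat, was at 15.09, 15.04 and 13.03. The 8 skeletal muscle genes summed to 11.41 to 12.09 in pup heart and 11.84 to 12.37 in pup hippocampus. The part of other tissues in the pup heart values was not tested.

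For Cox4i2, whose pup heart values were 11.12, 9.70 and 13.29, some pericyte genes kept the same order. Abcc9, a subunit of the potassium channel of pericytes and heart muscle, was at 14, 12.82 and 15.19 in these samples, and Rgs5, a pericyte gene, at 15, 13.49 and 15.25. The summed pericyte list was 16.71, 16.27 and 17.09. Of its 8 genes, however, 4 were highest in replicate 1 and 3 in replicate 3. Their part in the Cox4i2 values was not tested.

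Between the ages, every called member was lower in adults. In heart 6 of 13 probe sets, of 4 genes, were lower in adults, against 8.32% of all probe sets, and 0 were higher, against 11.7%. In hippocampus 2 were lower, against 6.52%, and 0 were higher, against 8.38%. By limma no member was higher in adults at an unadjusted p under 0.05 in either tissue, while the methods' t-test called 0 higher in heart and 1 higher, Cox4i2, in hippocampus. The members' median was -0.97 in heart and -0.71 in hippocampus, beside 0.11 and 0.12 over all probe sets.

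The general isoforms carried these calls. Cox7a2 fell by 2.83 on 1416971_at (7.09-fold, limma adjusted p = 0.00066) and fell by 2.47 on 1416970_a_at (5.55-fold, limma adjusted p = 0.00389) from pup to adult heart. In hippocampus 1416971_at fell by 2.73 (6.61-fold, limma adjusted p = 0.00105), from 14.27 to 14.58 in pups to 11.50 and 11.96 in adults. There 1416970_a_at had a difference of -0.97 (1.96-fold, limma adjusted p = 0.148), without overlap, which did not pass. It passed with each adult array as a replicate (limma adjusted p = 0.04), with a random block (0.047), with only the compared groups (0.0288) and without pup heart replicate 2 (0.0258). Cox6a1 on 1417418_s_at fell by 2.55 in heart (limma adjusted p = 0.000997) and fell by 2.36 in hippocampus (limma adjusted p = 0.00191), whereas on 1417417_a_at the differences of -0.48 and -0.15 did not pass.

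Cox8a fell by 2.49 in heart with age on 1448222_x_at (5.64-fold, limma adjusted p = 0.000539) and fell by 0.97 on 1416112_at (limma adjusted p = 0.0143). The second call was lost without adult heart replicate 1, at -0.82 (limma adjusted p = 0.122), and with only the compared groups fitted (limma adjusted p = 0.0775). In hippocampus 1448222_x_at had a difference of -0.80 that did not pass (limma adjusted p = 0.0565), but passed in 5 alternatives, among them each adult array as a replicate (limma adjusted p = 0.0237). Cox4i1 fell by 1.67 in heart with age (3.17-fold, limma SE 0.41, adjusted p = 0.0186), a call lost without either adult heart replicate (-1.74 with limma adjusted p = 0.0907, and -1.59 with limma adjusted p = 0.109).

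No muscle isoform passed between the ages in either tissue over the 10 biological samples. In heart, adult minus pup was 0.11 for Cox7a1 (95% interval -1.57 to 1.79), -0.60 for Cox8b (-2.66 to 1.45), and -0.12 and -1.44 for the Cox6a2 probe sets 1417607_at and 1457633_x_at. The last of these passed with each adult array as a replicate (limma adjusted p = 0.0241) and with a random block (0.0276), and without pup heart replicate 2 it was -1.91 and passed (0.0372). The intervals are wide, so these values do not show that the levels were the same. Cox4i2 differed by -0.58 in heart (-2.32 to 1.15) and by 1.17 in hippocampus (-0.57 to 2.90), where the groups did not overlap. The hippocampus difference passed with only the compared groups fitted (limma adjusted p = 0.0154) and by the methods' t-test (adjusted p = 0.0463). Its SD was 0.09 in pup and 0.14 in adult hippocampus, against 1.81 in pup heart, which the main fit includes.

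Ordered by group mean, Cox8b was highest in pup heart (14.39 ± 1.18, SD, n = 3), then adult heart (13.79 ± 0.25, n = 2), pup hippocampus (8.88 ± 1.66, n = 3) and adult hippocampus (8.01 ± 1.01, n = 2). Cox7a1 had its highest means in adult heart (12.80 ± 0.05, n = 2) and pup heart (12.69 ± 1.68, n = 3), whose order turned with 1 sample left out (-0.39 to 1.08), followed by pup hippocampus (7.75 ± 0.44, n = 3) and adult hippocampus (7.11 ± 0.27, n = 2). Neither gene passed the test between the ages of a tissue. The hippocampus values of Cox7a1 were 7.31 to 8.18 in pups and 6.92 and 7.30 in adults, with a difference of -0.64 (95% interval -2.33 to 1.04). They did not overlap only after technical arrays were averaged. Single adult arrays read 7.23 and 7.36 for replicate 1 and 7.71 and 6.13 for replicate 2, some within the pup range. The general isoform Cox7a2 on 1416971_at was ordered by age instead, at 15.09 ± 0.45 in pup heart and 14.46 ± 0.17 in pup hippocampus (n = 3 each) and 12.26 ± 0.09 in adult heart and 11.73 ± 0.33 in adult hippocampus (n = 2 each).

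The pair ratio of Cox7a1 to Cox7a2 was higher in adults, by 2.51 (2.94 in heart, 2.08 in hippocampus), with an exact permutation p of 0.01, the smallest of 100 arrangements, and an adjusted p of 0.0333. It was 2.30 without adult hippocampus replicate 1 (exact permutation p = 0.05) and 1.46 with the other Cox7a2 probe set (exact permutation p = 0.06). In hippocampus Cox7a1 lay low on the scale at both ages, so the ratio there cannot show whether Cox7a1 moved along with Cox7a2. The ratio differed between ages by 0.16 for subunit VIa (exact permutation p = 0.29), by -0.15 for subunit VIII (exact permutation p = 0.81) and by 1.49 for subunit IV (exact permutation p = 0.07, adjusted 0.112). The subunit VIa value depended on the Cox6a1 probe set. With Cox6a1 on 1417418_s_at it was 2.30 for Cox6a2 on 1417607_at (exact permutation p = 0.01, not adjusted). For Cox6a2 on 1457633_x_at it was 1.38 there (exact permutation p = 0.02, not adjusted).

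The interaction, which is how much more a value changed with age in heart than in hippocampus, was called for 1 of 13 probe sets. Cox8a on 1448222_x_at fell more in heart than in hippocampus, with an interaction of -1.69 (limma SE 0.35, adjusted p = 0.0323), against 1.18% of all probe sets called in that direction. On this probe set the pup samples of both tissues lay between the percentiles 98.2 and 99.4 of their arrays, near the upper end of the scale, and the part of that in the falls and in the interaction was not tested. No member was called in the other direction, where 2.37% of all probe sets were, nor did any reach an unadjusted p under 0.05 there (limma). The call for Cox8a held only without pup heart replicate 2 or 3 and was lost without any 1 of the other 8 samples, with limma adjusted p from 0.0552 to 0.124. The age differences of Cox7a1 and Cox8b had interactions of 0.75 (95% interval -1.63 to 3.13) and 0.27 (-2.64 to 3.17).

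The other nuclear-encoded subunits, which are not members and here include Cox7a2l and Cox8c, were followed on 23 probe sets of 10 genes. In pup heart 7 of the 23 were higher (6.77% of all probe sets) and none was lower by limma, with a median of 0.67, and 4 were higher in adult heart (11.9% of all), with a median of 0.69. In pup heart Cox6c was higher by 2.37 on 1434491_a_at (limma SE 0.52) and by 1.35 on its brightest probe set (limma SE 0.27). Cox5b was higher by 2.01 on 1416902_a_at (limma SE 0.34), while its brightest probe set had 0.26 and did not pass (limma adjusted p = 0.46). These differences were smaller than those of Cox7a1 and Cox8b. In adult heart Cox6b1 was higher by 1.29 on 1436757_a_at and Cox5a by 1.25 on 1439267_x_at (limma SE 0.32 and 0.38). The brightest probe sets of these genes differed by 0.25 for Cox6b1 (limma adjusted p = 0.496) and 0.69 for Cox5a (limma adjusted p = 0.141), which did not pass.

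With age 13 of the 23 fell in heart and 9 fell in hippocampus, where 8.32% and 6.52% of all probe sets fell, with medians of -1.18 and -0.77. Cox5a on 1439267_x_at fell by 2.85 in heart and fell by 2.97 in hippocampus, and its brightest probe set fell by 1.38 and fell by 1.83. Cox6b1 on 1436757_a_at fell by 2.58 and fell by 2.96, whereas its brightest probe set differed by -0.25 and -0.26 and did not pass (limma adjusted p = 0.447 and 0.454).

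Assembly factors and the genes that deliver copper or heme to the enzyme showed calls in both directions. Of their 40 probe sets, 4 were higher and 2 lower in pup heart, and 9 were higher and 2 lower in adult heart. Over all probe sets 6.77% were higher and 7.52% lower in pups, and 11.9% and 10.3% in adults, so the pup counts and the adult lower count were near or below the background. Cox17, the copper chaperone of the enzyme, was higher by 2.50 in pup heart (limma SE 0.43) and fell by 3.81 in heart with age (limma SE 0.49), both on 1434435_s_at. The interaction on that probe set was -3.65 (limma adjusted p = 0.0227). On another probe set, 1434871_at, Cox17 was higher by 1.66 in adult heart (limma adjusted p = 0.00481). Cmc2, an assembly factor, was higher by 2.13 in pup heart and by 2.04 in adult heart, on different probe sets that cannot be compared.

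Regulators of mitochondrial genes were called on 9 of 53 probe sets higher and 2 lower in pup heart, and 7 higher and 10 lower in adult heart. The shares of all probe sets were 6.77% and 7.52% in pups and 11.9% and 10.3% in adults, so the 7 higher in adults were near the background. Ppargc1a, a coactivator of mitochondrial gene expression, was higher by 1.59 in pup heart on 1437751_at (limma SE 0.30). Its difference of -2.83 in adult heart, which was lower, came from another probe set, 1434100_x_at (limma SE 0.51), so the ages are not compared by these values. Epas1, a factor of the response to low oxygen, was higher by 1.93 in pup heart (limma SE 0.46). Esrra, an estrogen-related receptor that acts on mitochondrial genes, had a difference of -3.40 and was lower in adult heart on 1442864_at. Neither 1434100_x_at nor 1442864_at was the brightest probe set of its gene, so these values may not hold for the gene as a whole.

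Other respiratory genes that exist as tissue forms were called on 12 of 24 probe sets, all higher, in pup heart and on 9 higher and 1 lower in adult heart, against 6.77% of all probe sets higher in pups and 11.9% higher and 10.3% lower in adults. Cycs, the somatic cytochrome c, was higher by 4.03 in pup heart and 3.26 in adult heart. Slc25a4, the heart and muscle form of the adenine nucleotide carrier, was higher by 3.82 on 1455069_x_at in pup heart and by 2.49 on 1424562_a_at in adult heart (limma SE 0.32 and 0.51). Its brightest probe set had age differences of -2.21 in heart and -2.40 in hippocampus, both passing.

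Genes with the most similar profile were found by the root-mean-square difference of centred log2 values over the 10 samples. For Cox7a1, whose profile had an SD of 2.74, the nearest were Csrp3 (0.75), Ckmt2 (0.83), Ankrd1 (0.85) and Corin (0.88). For Cox8b, with an SD of 2.99, they were Tnnt2 (0.80), Corin (0.86), Tnnc1 (0.93) and Eno3 (0.94). Tnnt2 and Tnnc1 encode cardiac troponins, and Ckmt2 encodes the mitochondrial creatine kinase of muscle.

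Cox6a2 had a different set of neighbours on each probe set. Those of 1457633_x_at, with an SD of 3.44, were Tnni3 (0.45), Eno3 (0.55), Mb (0.60) and Tnnt2 (0.62), which include myoglobin and a further cardiac troponin. Those of 1417607_at, with an SD of 0.51, were Lzts2 (0.18), Zfp551 (0.18), Lancl3 (0.19) and Lpcat3 (0.19). For Cox4i2, with an SD of 1.13, they were Tlcd4 (0.36), Phldb2 (0.44), Camk2d (0.46) and As3mt (0.51). With 10 samples in 2 tissues many genes share such profiles, and these values are a description.

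Promoter sequences of the pairs of subunits VIIa and VIII are shown because the ratio of muscle to general isoform was higher in heart at both ages for these pairs. RefSeq sequences of build GRCm38.p6, from 250 bases before to 50 bases after the gene start, were found for 5 of the 8 members; Cox4i1, Cox4i2 and Cox6a2 were not matched. Capitals mark an E-box, CANNTG, which muscle factors of the helix-loop-helix family bind, or an ETS core, CCGGAA, bound by ETS factors that act on many mitochondrial genes, on either strand. The windows are chr7:30183921-30184220 on the plus strand for Cox7a1, chr7:140900397-140900696 on the minus strand for Cox8b, chr9:79759804-79760103 on the minus strand for Cox7a2 and chr19:7217567-7217866 on the minus strand for Cox8a. Each is written 5′ to 3′ along its gene.
Cox7a1: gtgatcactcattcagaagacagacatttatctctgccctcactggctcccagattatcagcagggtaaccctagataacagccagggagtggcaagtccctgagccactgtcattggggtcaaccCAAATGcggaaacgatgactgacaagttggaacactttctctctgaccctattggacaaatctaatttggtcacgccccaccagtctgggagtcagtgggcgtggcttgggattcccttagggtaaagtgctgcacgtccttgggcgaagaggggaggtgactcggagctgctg
Cox8b: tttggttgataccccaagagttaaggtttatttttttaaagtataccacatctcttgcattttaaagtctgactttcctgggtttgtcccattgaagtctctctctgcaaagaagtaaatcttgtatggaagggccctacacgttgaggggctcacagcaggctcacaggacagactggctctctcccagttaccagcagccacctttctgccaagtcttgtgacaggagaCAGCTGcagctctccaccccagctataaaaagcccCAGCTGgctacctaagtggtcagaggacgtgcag
Cox7a2: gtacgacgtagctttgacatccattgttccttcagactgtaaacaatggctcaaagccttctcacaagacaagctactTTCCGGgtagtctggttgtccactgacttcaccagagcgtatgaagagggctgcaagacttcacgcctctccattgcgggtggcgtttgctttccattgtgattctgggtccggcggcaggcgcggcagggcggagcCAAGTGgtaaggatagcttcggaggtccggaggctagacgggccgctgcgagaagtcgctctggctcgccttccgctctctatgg
Cox8a: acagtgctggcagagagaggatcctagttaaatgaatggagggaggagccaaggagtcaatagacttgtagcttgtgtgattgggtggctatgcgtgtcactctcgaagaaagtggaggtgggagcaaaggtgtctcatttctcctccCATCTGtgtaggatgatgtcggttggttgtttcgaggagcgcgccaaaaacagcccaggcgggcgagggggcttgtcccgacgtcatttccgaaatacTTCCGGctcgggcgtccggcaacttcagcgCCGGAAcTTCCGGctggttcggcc

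The muscle isoforms differed from the general ones in base composition in these windows. Cox7a1 had 7 CpG dinucleotides and Cox8b had 2, while Cox7a2 had 20, Cox8a 19 and Cox6a1 32, and the median over 27025 promoters was 7. GC content was 53% for Cox7a1 and 48.3% for Cox8b, against 56.7% for Cox7a2, 56% for Cox8a and 63% for Cox6a1, with a median of 52.7%. An ETS core was found in all 3 general isoforms, with 1 match in Cox6a1, 1 in Cox7a2 and 3 in Cox8a, and in neither muscle isoform, and 15.1% of all promoters held it. An E-box was found in Cox7a1, Cox8b, Cox7a2 and Cox8a and in 72.3% of all promoters.

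Motifs of other factors were searched on both strands. The NRF1 core GCATGCGC, of a factor for mitochondrial genes, was found in Cox6a1 and in 2.78% of all promoters. The hypoxia core ACGTG was found in Cox7a1 and Cox8b and in 19.5% of all promoters, and TATAAA in Cox8b and in 14.1%. Neither AAGGTCA, the estrogen-related receptor motif (4.66% of all promoters), nor the MEF2 core TAAAAATA (2.71%) was found in the 5 windows. Letters of a motif in a window are a description of the sequence and do not show binding.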

How the data were processed

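RNA of heart and hippocampus from C57BL/6 pups and adults was hybridized to 14 single-colour Affymetrix arrays. The deposited log2 expression values of 45101 probe sets were summarized by the authors with RMA, version 2.0 per the submitters' processing notes. The values lay between 2.67 and 16.0, and no detection calls were used here. Genes were named through the platform annotation: 34958 probe sets named 1 gene, 932 several and 9211 none here. The 64 array controls were left out.

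The values of technical arrays were averaged within an adult replicate. Group means were then fitted to the 10 biological samples by limma 3.58.1 (statmod 1.5.0, under R 4.3.3), which left 6 residual and 3.73 prior degrees of freedom. The two-sided p-values were adjusted by Benjamini-Hochberg over all 45037 probe sets, and "higher", "lower" or "fell" means an adjusted p under 0.05. Precision is limited by the number of arrays. The median SE of a difference was 0.30 in pups, 0.37 in adults, 0.34 between ages and 0.48 for the interaction. The study's methods name a t-test, which was run as an alternative. Pair ratios were compared by exact permutation tests. The fit and the permutation test were tested on simulated data.

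Members, gene lists, markers, motifs and tests were chosen with earlier results of these data known. All member probe sets were named, as were up to 4 called genes of each list with the largest difference in a comparison described (a selection of them is printed), and the 4 genes nearest to each partner isoform. The list genes measured were 108 of 117. Summed list levels are log2 of the sum of linear values of the brightest probe set of each gene. The use of the second Cox6a2 probe set for pair ratios and neighbours was added after its values were seen. Markers of other cell types named beside the members, and those plotted, were also picked after their values were seen. Alternatives covered array averaging, scaling, filters, probe set choice, the replicate block and each sample left out.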

Additional observations from a re-analysis of the deposited data

Results flagged for a closer look

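The age difference of Cox8a on 1448222_x_at differed between the tissues by a test of the difference itself: the interaction was -1.69, from an adult minus pup value of -2.49 in heart and -0.80 in hippocampus (limma adjusted p = 0.0323). Its other probe sets had interactions of -0.76 on 1416112_at and -0.86 on 1436409_at, which did not pass. All 6 pup samples lay between the percentiles 98.2 and 99.4 of their arrays on 1448222_x_at, near the upper end of the scale, and the part of that in the interaction was not tested.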

How the results depend on the processing

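Of 1273 values of single probe sets under alternatives, 1180 kept their direction and their side of the threshold, 42 lost the call, 29 gained it and 22 changed sign. The tissue differences of Cox7a1, Cox8b and Cox6a2 on 1457633_x_at passed at both ages under every limma alternative that kept the probe set. The fits with the brightest probe set of each gene and without _x_at and _s_at probe sets left out 1457633_x_at. By the methods' t-test Cox7a1 did not pass (adjusted p = 0.0938 in pups and 0.0705 in adults), nor did Cox8b (adjusted p = 0.101 at both ages). Cox6a2 on 1457633_x_at did not pass by that t-test in adults (adjusted p = 0.0729). The cause of the changes below was not tested unless it follows from fewer probe sets or samples.

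The methods' t-test called 1 member higher and 0 lower in pup heart and 0 in either direction in adult heart. For age it called 0 lower in heart and 1 higher in hippocampus, and at the false discovery rate of the study's methods it called 0 in each of these counts and 0 lower in hippocampus. With the brightest probe set of each gene, fewer probe sets being tested, the counts were 0 lower in pup heart, 1 lower in adult heart, 3 lower with age in heart, 1 lower with age in hippocampus and 0 interactions. Without probe sets that can cross-hybridize (_x_at, _s_at) they were 0 lower in each tissue comparison, 1 lower with age in hippocampus and 0 interactions. The mean over probe sets gave 0 interactions. With each adult array as its own replicate, 4 were lower with age in hippocampus and 2 interactions were called, and a random block gave 4 lower in hippocampus. Fitting only the compared groups gave 1 higher with age in hippocampus, Cox4i2 (limma adjusted p = 0.0154). This fit also ended the pup call of Cox6a2 on 1417607_at and the age call of Cox8a on 1416112_at in heart (limma adjusted p = 0.0622 and 0.0775).

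The deviations from the group mean of same-numbered samples of both tissues correlated at 0.197, -0.0843 and 0.00633 in pups and -0.0546 in adults. With 2 adult replicates the deviations mirror each other, so any adult pairing gives 0.0546 or -0.0546 and cannot show pairs. The numbers were not taken as pairs. With the replicate block the interaction count was 0 and the Cox6a2 call on 1417607_at was lost at both ages (limma adjusted p = 0.0621 and 0.0676). In this paired form the pair ratios were again 1.19, 4.73 and 6.02 for subunits VIa, VIIa and VIII, with an exact permutation p of 0.0625, the smallest that 5 pairs allow.

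With 1 sample left out at a time, signs changed for values near 0. The tissue difference in pups ranged from -0.06 to 0.05 for Cox8a on 1416112_at and from -0.07 to 0.05 on 1448222_x_at. The age difference in heart ranged from -1.42 to 0.37 for Cox4i2, from -0.39 to 1.08 for Cox7a1 and from -0.32 to 0.26 for Cox8a on 1436409_at. In hippocampus it ranged from -0.42 to 0.05 for Cox6a2 on 1417607_at and from -1.59 to 0.05 for Cox8b. Interactions ranged from -0.43 to 0.07 for Cox6a1 on 1417418_s_at, from -0.17 to 0.30 for Cox6a2 on 1417607_at, from -0.36 to 0.13 for Cox7a2 on 1416971_at and from -0.65 to 0.99 for Cox8b, and 0 to 2 were called.

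The tissue difference of the Cox4i2 to Cox4i1 ratio ranged from -0.57 to 0.29 with 1 sample left out. Its age difference ranged from 1.10 to 1.95, passing without pup heart replicate 3 (exact permutation p = 0.0333), and was 1.49 with adult arrays as replicates (exact permutation p = 0.0098). The age difference of the Cox7a1 to Cox7a2 ratio ranged from 2.22 to 2.92, and that of Cox8b to Cox8a from -0.56 to 0.31. For Cox6a2 to Cox6a1 the age difference was 0.77 with means over probe sets (exact permutation p = 0.03) and -0.76 with the other Cox6a2 probe set (exact permutation p = 0.13), an alternative chosen after seeing the data. With Cox6a1 on 1417418_s_at it was 2.30 and 1.38 for the Cox6a2 probe sets 1417607_at and 1457633_x_at.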
